A study of Mus musculus with 11 samples.

Results

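Bcl2, Bcl2l1, Mcl1, Bax, Bak1, Bcl2l11, Bbc3, Pmaip1, Bid and Fas are 10 mouse genes of the cell death machinery, and their RNA was followed here through every group of a study of sorted thymocytes. They were chosen by symbol from a list of apoptosis genes, with earlier results of these data known. All 10 were found among the 53402 gene identifiers that the 2 count tables share. Of these, 8 were also listed in both tables of normalised values, since Fas fell under the authors' filter on low counts in one table and Bbc3 in the other. The cells were CD24-negative, TCRβ-negative thymocytes, a fraction that holds neither the bulk of immature thymocytes nor mature αβ T cells, purified by flow sorting. At postnatal day 0 there were 2 libraries each of Bcl11b D/N440K, Bcl11b +/N440K and Bcl11b +/+. At postnatal day 7 there were 3 libraries labelled Tcf7 F/F:Vav1-Cre and 2 of Tcf7 +/+. Bcl11b and Tcf7 encode transcription factors of T cell development. N440K names a changed residue of the Bcl11b protein, and D is an allele that the labels do not define. F/F denotes a floxed gene, and Vav1-Cre is a recombinase driven in blood-forming cells and their progeny.

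Proteins of the BCL2 family decide whether the outer membrane of the mitochondrion stays intact. BCL2, BCL-XL (gene Bcl2l1) and MCL1 hold cells alive by binding the pore-forming effectors BAX and BAK and the short activators called BH3-only proteins, among them BIM (Bcl2l11), PUMA (Bbc3), NOXA (Pmaip1) and BID. In the thymus, BIM is known for the death of self-reactive thymocytes, BCL-XL for the survival of double-positive thymocytes and BCL2 for the survival of early and mature T cells downstream of cytokine receptors. FAS is the surface receptor of the extrinsic pathway, which is joined to the mitochondrial one through BID.

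Libraries held 999381 to 1842717 counts in total and 17544 to 20480 genes with a read. Levels are normalised read counts, in CPM, that is, reads scaled by library size with edgeR's TMM factors. Fold changes are log2 values from edgeR's quasi-likelihood test ± SE. A gene was called at a Benjamini-Hochberg adjusted p under 0.05 over all genes tested in its fit. Only genes past a filter on low counts were tested. The tables were normalised separately, so levels set across them are a description. Nothing in the labels says that replicates came from separate animals, so p-values measure only the spread between these libraries, which may be technical. As a check of the labels, Bcl11b RNA stood at 152 and 204 CPM in D/N440K, 185 and 225 in +/N440K, and 641 and 506 in +/+. Tcf7 RNA stood at 847, 658 and 694 CPM in libraries labelled Tcf7 F/F:Vav1-Cre, against 552 and 594 in Tcf7 +/+. Tcf7 was thus not lower under that label but was called higher (0.35 ± 0.12, edgeR adjusted p = 0.0497). Counts summed over all exons do not show whether part of the gene was deleted. All 6 markers of T cells on a list of marker genes had reads in all 5 groups. Genes of the T cell receptor complex among them, except Cd3g in D/N440K, were lower in the mutants. The other markers were not called lower. Cd3e fell in D/N440K (-1.11), in +/N440K (-0.71) and under the label Tcf7 F/F:Vav1-Cre (-1.30), and Cd3d fell in each too (-0.83, -0.78 and -6.25), down to 1.47 CPM under that label, against 116 CPM in Tcf7 +/+. Cd3g fell in +/N440K (-0.64) and under the label (-1.67). The edgeR adjusted p of these 8 falls were 1.595e-12 to 0.000711. In D/N440K Cd3g did not pass (-0.12, edgeR adjusted p = 0.602). Il2rb rose in D/N440K (0.46, edgeR adjusted p = 5.863e-07) and in +/N440K (0.43, edgeR adjusted p = 2.631e-06). Thy1 rose under the label (0.75, edgeR adjusted p = 0.000636), and Lck was not called in any comparison. All 6 Bcl11b libraries held reads of Xist and of Y-linked genes together. In the Tcf7 table, replicates 1 and 3 labelled Tcf7 F/F:Vav1-Cre held Xist reads with at most 2 Y-linked reads, and the other 3 libraries held 555 to 715 Y-linked reads. The 2 Tcf7 +/+ libraries differed from each other more than any other pair of replicates, with a chi-square per degree of freedom of 4.94 against 1.14 to 2.16 for the others.

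The members with the largest rise and the largest fall in the series were Bcl2 and Fas, both in libraries labelled Tcf7 F/F:Vav1-Cre. Bcl2 lies at GRCm38 chr1:106538178-106714274 on the minus strand (ENSMUSG00000057329), and Fas at chr19:34290666-34327772 on the plus strand (ENSMUSG00000024778), both protein-coding. The 250 bases before their RefSeq starts (GRCm38.p6) are shown for both genes, since TCF7 and its relatives bind a core motif, CTTTGA, or TCAAAG on the other strand. The Bcl2 window covers chr1:106714291-106714540 and the Fas window chr19:34290409-34290658, each printed 5′ to 3′ on the strand of its gene, with the motif in capitals.
Bcl2: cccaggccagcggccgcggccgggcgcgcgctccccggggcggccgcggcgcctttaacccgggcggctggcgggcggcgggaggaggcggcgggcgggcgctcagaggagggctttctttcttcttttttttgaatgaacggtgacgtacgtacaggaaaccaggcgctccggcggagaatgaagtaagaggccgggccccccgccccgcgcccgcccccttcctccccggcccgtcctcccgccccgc
Fas: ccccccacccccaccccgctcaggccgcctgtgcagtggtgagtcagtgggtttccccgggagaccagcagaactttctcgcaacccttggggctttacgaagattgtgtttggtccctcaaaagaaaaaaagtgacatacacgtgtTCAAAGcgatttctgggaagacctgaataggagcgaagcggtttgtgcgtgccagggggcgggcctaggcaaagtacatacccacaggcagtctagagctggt
The Fas window held 1 match in the reverse orientation, 103 bases before the start, and had a GC content of 56.4%. The Bcl2 window held none of these letters and had a GC content of 74.8%. Over both strands, 13.8% of 32851 promoter windows of this length held the motif, as did 2 of the 14 windows of the 9 members with an entry. A match describes the letters in the window and does not show a binding site.

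Bcl2 was the member with the largest rise. In libraries labelled Tcf7 F/F:Vav1-Cre it had 509, 464 and 426 CPM, against 154 and 152 CPM in Tcf7 +/+. Every library of that label stood above both Tcf7 +/+ libraries. The means were 466 ± 41.3 (SD, n = 3) and 153 ± 1.56 CPM (SD, n = 2), and Bcl2 rose by a log2 fold change of 1.61 ± 0.13, with a 95% interval of 1.33 to 1.89 and an edgeR adjusted p of 1.344e-07. This is a 3.05-fold higher level. Within the Bcl11b table, Bcl2 had 363 and 377 CPM in D/N440K, 346 and 348 CPM in +/N440K, and 348 and 294 CPM in +/+. The +/N440K libraries fell within the range of +/+, and both D/N440K libraries lay above it. The log2 fold changes against +/+ were 0.21 ± 0.09 in D/N440K (edgeR adjusted p = 0.146) and 0.12 ± 0.09 in +/N440K (edgeR adjusted p = 0.537). Neither passed the test. D/N440K differed from +/N440K by 0.09 ± 0.09 (edgeR adjusted p = 0.919).

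The Bcl2 result can be set beside the sex and the cell makeup of the Tcf7 libraries, since in bulk RNA a change in the number of cells of a type and a change in RNA per cell cannot be told apart. With sex, read from Y-linked counts, as a term in the fit, an alternative chosen after seeing the data, the log2 fold change of Bcl2 was 1.60 (edgeR adjusted p = 3.581e-05). The 1 library of the label that carries Y-linked reads, replicate 2, had 464 CPM, about the group's mean. Against the 2 Tcf7 +/+ libraries alone it gave 1.62, without passing the test (edgeR adjusted p = 0.215), in a fit in which 0 of all genes passed and 1484 had an unadjusted p under 0.05. Other cell type markers also moved. Summed over 8 myeloid markers, of which Elane was at 0, the level was 1006 to 1141 CPM in libraries labelled Tcf7 F/F:Vav1-Cre and 393 to 664 CPM in Tcf7 +/+. The 4 mast cell and basophil markers summed to 58.2 to 74.6 CPM, against 19.7 to 22.5 CPM. The 7 markers of thymic stroma summed to 342 to 387 CPM, against 194 to 214 CPM, and most of this sum was Pecam1 (333.5 against 189.1 CPM). Krt8 was also called higher (20.3 against 3.1 CPM), whereas Epcam (7.42 against 9.3 CPM) was not called. Foxn1, Col1a1, Col1a2 and Krt5 had too few reads to be tested. The 6 B lineage markers summed to 315 to 337 CPM, against 556 to 616 CPM in Tcf7 +/+. The 6 markers of double-positive thymocytes, with Dntt at 0 under the label, summed to 444 to 448 CPM, against 804 to 827 CPM. Of the 5 tested, 1 was called higher, Cd4 (351 against 201.5 CPM), and 4 were called lower. Among those, Rag1 had 0.83 CPM under the label, against 363 CPM. The 6 markers of NK cells and ILC1 summed to 362 to 446 CPM, against 587 to 695 CPM. Of them 5 were called lower, and Gzma (210 against 183 CPM) was not called. The 4 γδ markers summed to 499 to 539 CPM, against 902 to 1106 CPM. Among these, Trdc (109.4 against 321.5 CPM) and Sox13 (5.61 against 238.4 CPM) were called lower. Blk (297.6 against 356.2 CPM) and Tcrg-C1 (108.6 against 88.2 CPM) were not called. The 6 T cell markers, of which 3 were called lower and 1 higher, summed to 1788 to 2127 CPM, against 2094 to 2315 CPM. The 5 dendritic cell markers summed to 1472 to 1607 CPM, against 1079 to 1462 CPM. The 5 erythroid markers, with Hba-a1 and Hbb-bs among those at 0 under the label, summed to 8.48 to 12.1 CPM, against 8.46 to 9.02 CPM. Proliferation markers, 4 in number, summed to 699 to 810 CPM, against 1106 to 1814 CPM in Tcf7 +/+. The part of these cells in the Bcl2 result was not tested.

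**Figure D1:**
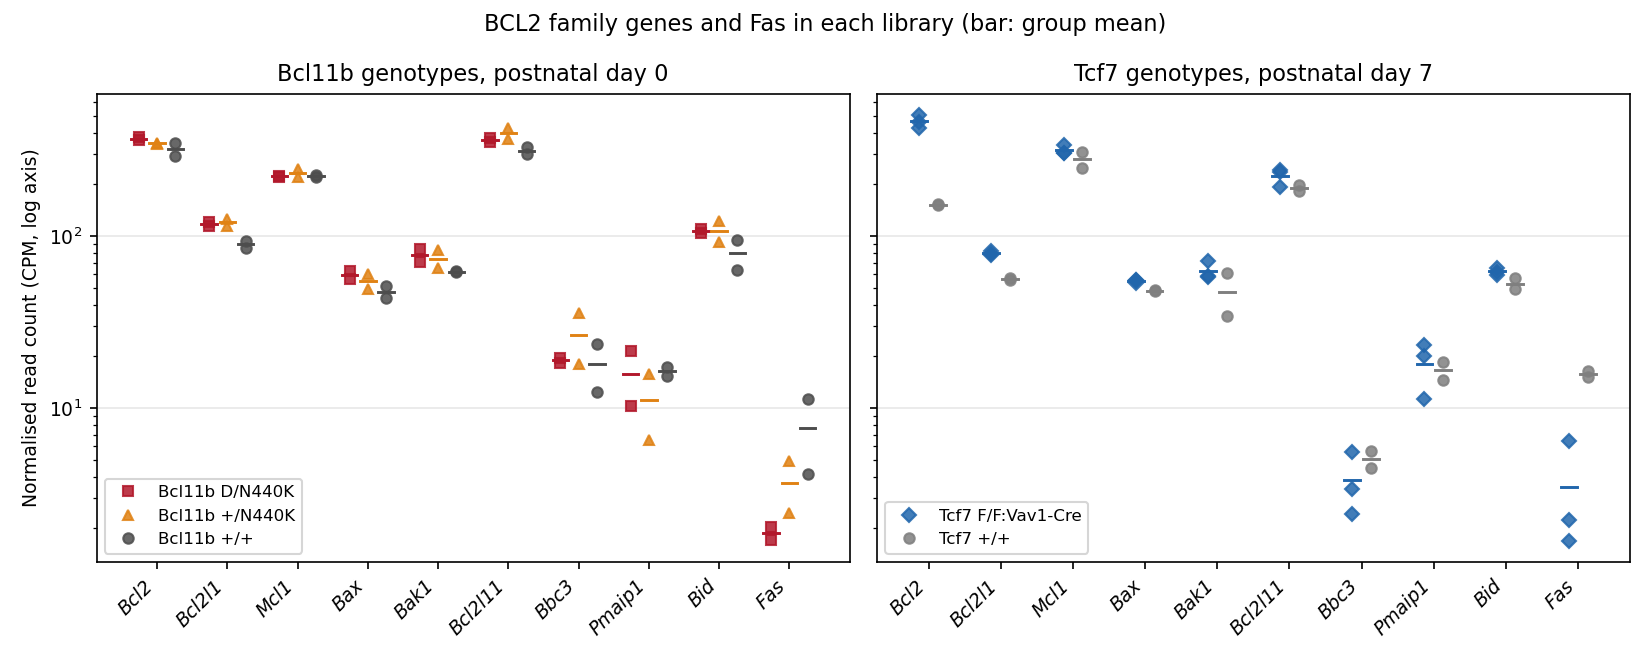
Normalised read count (CPM, log axis) of each gene in each library, with 1 symbol per library and a bar at the group mean, for the Bcl11b genotypes at postnatal day 0 (left) and the Tcf7 genotypes at postnatal day 7 (right). Bcl2 stands at 426 to 509 CPM in libraries labelled Tcf7 F/F:Vav1-Cre, against 152 and 154 CPM in Tcf7 +/+, and Fas at 1.7 to 6.47 CPM, against 15.2 and 16.3 CPM.

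Bcl2l1, the gene of BCL-XL (ENSMUSG00000007659, chr2:152780668-152831728, minus strand), stood above wild type in every mutant library of both tables. It had 121 and 115 CPM in D/N440K, 114 and 126 CPM in +/N440K, and 94.1 and 85.5 CPM in +/+. All 4 libraries with the N440K allele lay above both +/+ libraries. In +/N440K it rose by 0.42 ± 0.14 (edgeR adjusted p = 0.0473), a call that was lost without any one of the 4 libraries: 0.49 and 0.34 without +/+ replicates 1 and 2 (edgeR adjusted p = 0.101 and 0.366), and 0.50 and 0.36 without +/N440K replicates 1 and 2 (edgeR adjusted p = 0.0537 and 0.234). DESeq2 did not call it (adjusted p = 0.591), nor did edgeR with RLE scaling (adjusted p = 0.0503). In D/N440K the difference from +/+ was 0.40 ± 0.14 and did not pass (edgeR adjusted p = 0.0576), whereas it passed in a fit of these 2 groups alone (edgeR adjusted p = 0.0458). D/N440K and +/N440K differed by -0.02 ± 0.13, with a 95% interval of -0.29 to 0.25. At postnatal day 7, Bcl2l1 had 82.5, 79.1 and 77.9 CPM in libraries labelled Tcf7 F/F:Vav1-Cre, against 56.9 and 55.8 CPM in Tcf7 +/+, and the groups did not overlap. It rose by 0.50 ± 0.17 (edgeR adjusted p = 0.0465). Without Tcf7 +/+ replicate 2, or replicates 1, 2 or 3 of the label, the change was 0.48 to 0.52 and did not pass (edgeR adjusted p = 0.0801, 0.153, 0.126 and 0.115). With sex as a term it was 0.49 (edgeR adjusted p = 0.315), without a filter on low counts the edgeR adjusted p was 0.0941, and by DESeq2 the adjusted p was 0.135.

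Mcl1, which encodes a short-lived inhibitor of BAX and BAK, passed the test in no comparison. It had 222 and 224 CPM in D/N440K, 221 and 245 CPM in +/N440K and 222 and 228 CPM in +/+. Mcl1 had 338, 305 and 305 CPM under the label Tcf7 F/F:Vav1-Cre and 251 and 311 CPM in Tcf7 +/+, and the groups overlapped. The 95% intervals of its log2 fold change were -0.22 to 0.20 in D/N440K, -0.16 to 0.25 in +/N440K and -0.11 to 0.45 in the Tcf7 comparison.

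Per kilobase of exon, where levels of different genes can be compared, Mcl1 had the highest level of the 10 genes in all 5 groups, at 65.2 to 92.5 CPM per kb. By this level Bcl2 ranked 2 of 10 under the label Tcf7 F/F:Vav1-Cre, at 50.9 ± 4.51 CPM per kb, and 5 of 10 in Tcf7 +/+, at 16.7 ± 0.171 CPM per kb. Of the summed level of Bcl2, Bcl2l1 and Mcl1 per kb, Bcl2 made up 32.2%, 32.2% and 30.4% in libraries labelled Tcf7 F/F:Vav1-Cre, against 16.4% and 13.9% in Tcf7 +/+. In the Bcl11b table this share was 30.3% and 31.2% in D/N440K, 29.8% and 27.6% in +/N440K, and 30.8% and 27.4% in +/+, where the ranges of +/N440K and +/+ overlapped. The share of Mcl1 was 56.8% to 58.5% under the label and 71.5% and 76% in Tcf7 +/+. The ratio of Bcl2 to Bcl2l11 per kb, an inhibitor and the activator it binds, was 1.83, 2.1 and 1.59 in libraries labelled Tcf7 F/F:Vav1-Cre, against 0.682 and 0.73 in Tcf7 +/+. In the Bcl11b table it was 0.849 and 0.93 in D/N440K, 0.828 and 0.714 in +/N440K, and 1.02 and 0.782 in +/+. Both D/N440K ratios lay above both +/N440K ratios, and the range of +/+ overlapped each of the others. These shares and ratios were read from members whose levels are given above and were not tested.

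**Figure D2:**
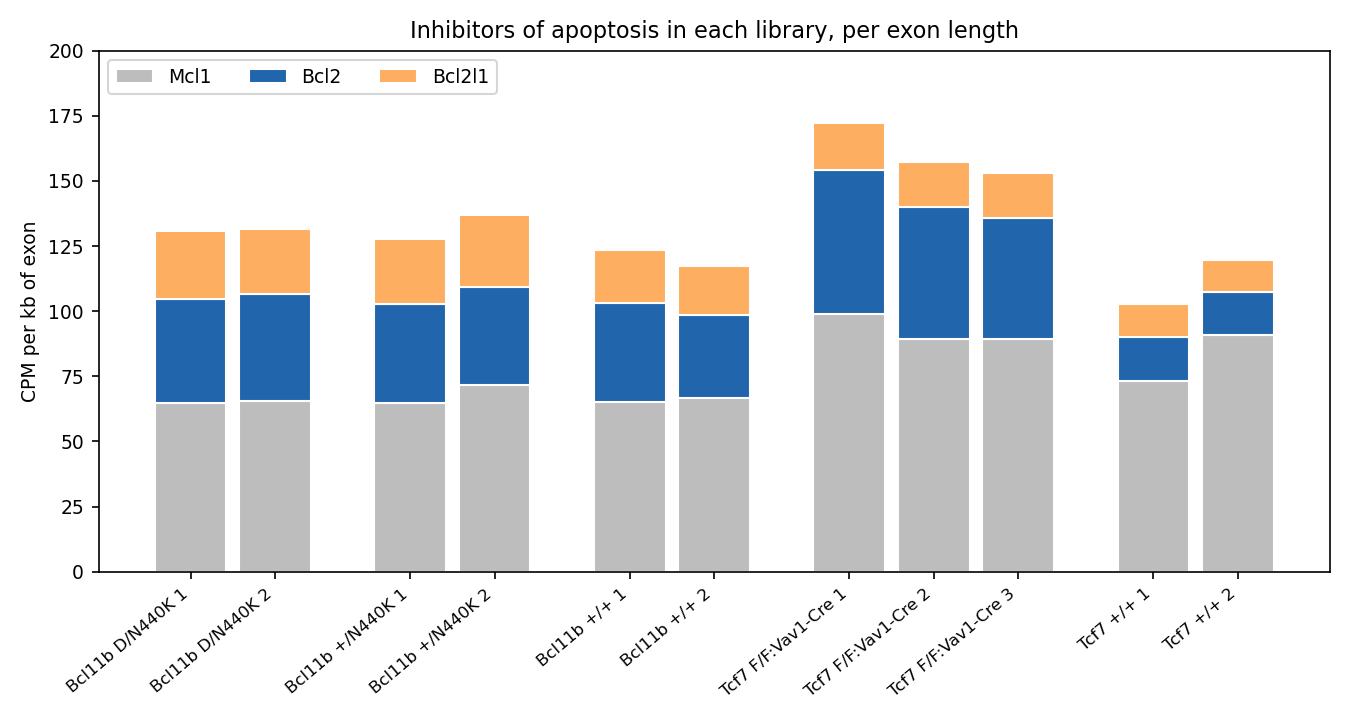
Stacked levels of the inhibitors Mcl1, Bcl2 and Bcl2l1 in each library, in CPM per kilobase of exon, for Bcl11b D/N440K, +/N440K and +/+ and for libraries labelled Tcf7 F/F:Vav1-Cre and Tcf7 +/+. The sum is 153 to 172 CPM per kb under that label, against 103 and 120 CPM per kb in Tcf7 +/+, and 117 to 137 CPM per kb in the Bcl11b table.

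The pore-forming effectors did not pass the test in any comparison. Bax had 56.5 and 63.1 CPM in D/N440K, 60.4 and 49.4 CPM in +/N440K, and 51.2 and 44 CPM in +/+. Bax had 53.4, 55.4 and 55.6 CPM under the label Tcf7 F/F:Vav1-Cre, against 47.9 and 48.5 CPM in Tcf7 +/+. The groups of the Tcf7 table did not overlap, with a log2 fold change of 0.19 ± 0.19 (edgeR adjusted p = 0.526). Bak1 had 83.9 and 71.3 CPM in D/N440K, 65.3 and 82.9 CPM in +/N440K, and 62.4 and 62.3 CPM in +/+. At postnatal day 7 Bak1 had 72, 57.6 and 58.4 CPM under the label, against 60.9 and 34.4 CPM in Tcf7 +/+, where replicate 2 was the low one. Its log2 fold change of 0.39 ± 0.23 (edgeR adjusted p = 0.258) became 0.85 without Tcf7 +/+ replicate 1 and then passed (edgeR adjusted p = 0.00322), and was 0.0275 without Tcf7 +/+ replicate 2 (edgeR adjusted p = 0.955). Ggnbp1 overlaps 25.5% of the exon bases of Bak1, and Gm45808 overlaps 12.2% of those of Bax. The strand of counting is not given in the sources used here, so reads of these neighbours may be included.

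Among the BH3-only activators, Bcl2l11, the gene of BIM (ENSMUSG00000027381, chr2:128126038-128162547, plus strand), had the highest level per kb in every group. It had 375 and 355 CPM in D/N440K, 368 and 424 CPM in +/N440K, and 300 and 330 CPM in +/+. All 4 libraries with the N440K allele lay above +/+. In +/N440K it rose by 0.32 ± 0.09 (edgeR adjusted p = 0.0158), but was not called without +/+ replicate 1 or +/N440K replicate 2 (0.26 and 0.22, edgeR adjusted p = 0.185 and 0.227), nor by DESeq2 (adjusted p = 0.287). In D/N440K the difference of 0.21 ± 0.09 did not pass (edgeR adjusted p = 0.15). D/N440K and +/N440K differed by -0.11 ± 0.09, with overlapping libraries. At postnatal day 7 Bcl2l11 had 243, 194 and 235 CPM under the label Tcf7 F/F:Vav1-Cre, against 198 and 182 CPM in Tcf7 +/+. The groups overlapped, and the difference of 0.24 ± 0.14 did not pass (edgeR adjusted p = 0.249).

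Bid, which links death receptors to the mitochondrion, had 111 and 105 CPM in D/N440K, 122 and 92.8 CPM in +/N440K, and 95.1 and 63.9 CPM in +/+. The +/+ libraries stood apart from each other, and replicate 2 was the low one. The log2 fold changes were 0.46 ± 0.17 in D/N440K (edgeR adjusted p = 0.0608) and 0.48 ± 0.16 in +/N440K (edgeR adjusted p = 0.0581). In a fit of the compared groups alone the D/N440K difference passed (edgeR adjusted p = 0.0393). Both passed without +/+ replicate 1, at 0.75 and 0.77 (edgeR adjusted p = 0.00591 and 0.00604), and in +/N440K also without +/N440K replicate 2, at 0.65 (edgeR adjusted p = 0.00601). Without +/+ replicate 2 the values were 0.18 in D/N440K and 0.19 in +/N440K (edgeR adjusted p = 0.7 and 0.718), and without +/N440K replicate 1 the value in +/N440K was 0.25 (edgeR adjusted p = 0.538). At postnatal day 7 Bid had 59.8, 65.5 and 62.3 CPM under the label, against 56.9 and 49 CPM in Tcf7 +/+, a difference of 0.24 ± 0.19 that did not pass (edgeR adjusted p = 0.388). Bcl2l13 overlaps 17.7% of the exon bases of Bid.

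Bbc3 and Pmaip1, known as targets of p53, had few reads. Bbc3 had 19.7 and 18.3 CPM in D/N440K, 18 and 35.5 CPM in +/N440K, and 23.5 and 12.5 CPM in +/+. Its counts of 3, 6 and 10 under the label and of 10 and 8 in Tcf7 +/+ lay below the filter on low counts of that table. Pmaip1 had 10.3 and 21.4 CPM in D/N440K, 6.53 and 15.8 CPM in +/N440K, and 15.4 and 17.4 CPM in +/+. At postnatal day 7 it had 11.3, 23.2 and 20 CPM under the label, against 14.7 and 18.6 CPM in Tcf7 +/+. For both genes the groups overlapped in every comparison and none passed. The 95% interval of the log2 fold change of Pmaip1 in +/N440K ran from -1.47 to 0.24.

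Fas, the death receptor, was the member that fell. It had 6.47, 1.7 and 2.23 CPM in libraries labelled Tcf7 F/F:Vav1-Cre, from 8, 3 and 4 counts, against 16.3 and 15.2 CPM in Tcf7 +/+, from 29 and 27 counts. All libraries of the label lay below Tcf7 +/+, and replicate 1 was the highest of them. Fas fell by a log2 value of 2.29 ± 0.46 (edgeR adjusted p = 0.00134), with a 95% interval of -3.29 to -1.35, to 0.204 of its level in Tcf7 +/+. It passed the filter on low counts through the Tcf7 +/+ libraries. Leaving out 1 library gave -2.96 to -1.94. With sex as a term the value was -3.16 (edgeR adjusted p = 0.011), and over the libraries with Y-linked reads alone it was -3.15 (edgeR adjusted p = 0.245). In the Bcl11b table Fas was below the filter, with 2 and 2 counts in D/N440K, 3 and 5 in +/N440K and 11 and 5 in +/+. Fitted without the filter, the differences from +/+ were -1.91 in D/N440K (edgeR adjusted p = 0.102) and -1.01 in +/N440K (edgeR adjusted p = 0.61), so no difference was detectable at this depth. The markers of other cells given beside Bcl2 differ between the same libraries, and their part in the Fas result was not tested.

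**Figure D3:**
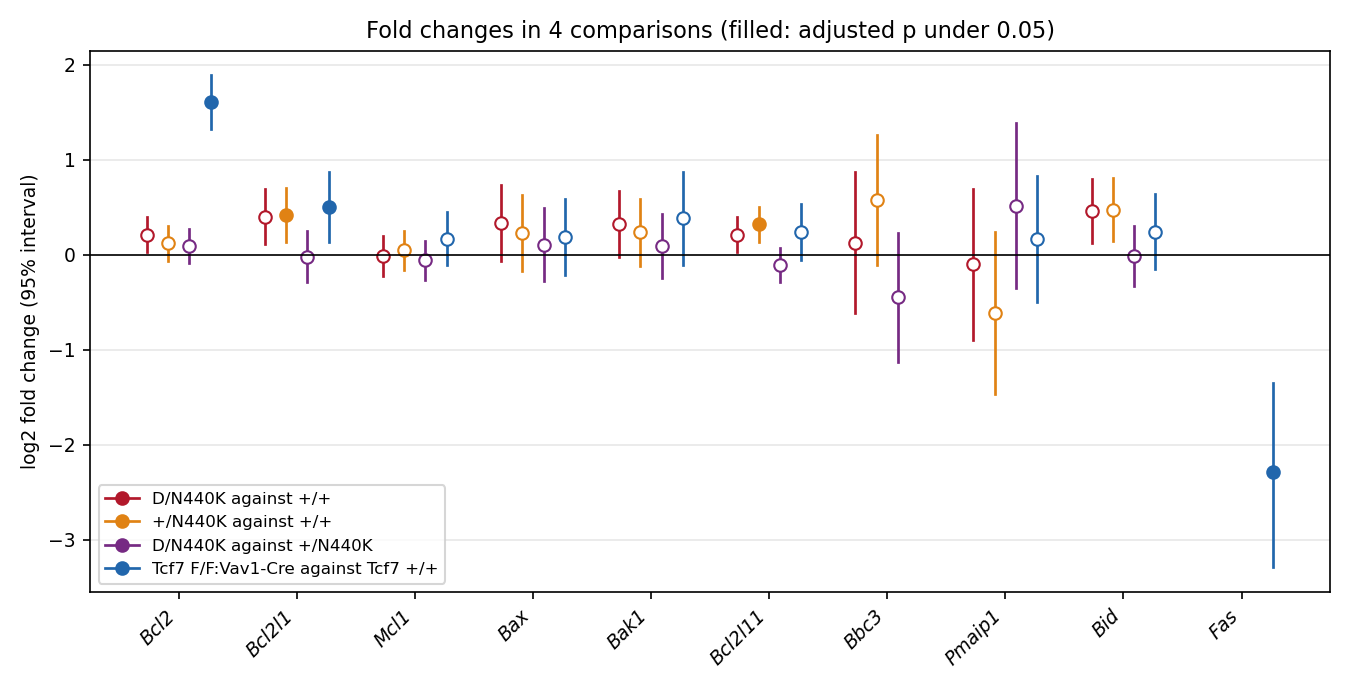
The log2 fold change of each gene, with its 95% interval, in the 4 comparisons of genotypes; filled points passed an edgeR adjusted p under 0.05. Bcl2 (1.61) and Fas (-2.29) in the Tcf7 comparison lie farthest from 0. The comparisons of D/N440K with +/+ and with +/N440K have no filled point.

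Counted over the family, the Tcf7 comparison called 3 of the 9 members tested, with Bcl2 and Bcl2l1 higher and Fas lower. Over all 12366 genes tested in that table, 23.2% were called, so this share is near the background. Of all genes there, 12% were called higher and 11.1% lower. Fas had passed the filter through Tcf7 +/+ alone. In +/N440K, 2 of 9 were called, both higher, against 10.1% of 10910 genes called and 4.79% called higher. In D/N440K with +/+, 0 of 9 were called by edgeR, against 12.4% of all genes. There, 4 of 9 members and 2462 of 10910 genes had an unadjusted p under 0.05, and DESeq2 called 0 members. For D/N440K with +/N440K, 0 of 9 were called, against 0.532% of all genes, with 0 at an unadjusted p under 0.05 and 0 by DESeq2. The median log2 fold change of the members tested was 0.21 in D/N440K, 0.24 in +/N440K and 0.24 in the Tcf7 comparison, beside 0.00, 0.00 and -0.01 over all genes. The comparisons with Bcl11b +/+ share its 2 libraries, so their like medians are not separate observations. Groups did not overlap for 6 of 9 members in D/N440K with +/+ and for 3 of 9 in +/N440K with +/+, beside 51% and 47.8% of all genes. In the Tcf7 comparison they did not overlap for 5 of 9, beside 48.8%, and for D/N440K with +/N440K for 1 of 9, beside 35.4%.

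Whether the 2 mutant effects differ was tested in 1 model over all 11 libraries, as the D/N440K effect minus the effect under the label Tcf7 F/F:Vav1-Cre. Bcl2 passed this test, with a difference of -1.40 ± 0.16 (95% interval -1.73 to -1.07, edgeR adjusted p = 6.413e-07), from effects of 0.21 and 1.61. It was the only member called of 10, against 11.5% of 12249 genes. Leaving out 1 library gave -1.51 to -1.27, each still past the threshold. For Bcl2l1 the difference was -0.10 ± 0.22, with a 95% interval of -0.55 to 0.35, and for Bcl2l11 it was -0.02 ± 0.17, with an interval of -0.38 to 0.33. For Fas, near the limit of detection in the Bcl11b table, it was 0.35 ± 1.05. The effects also differ in age, table and library depth, which cannot be told apart from genotype here.

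The Bcl11b mutants differed from +/+ in markers of other cells too, though not on every list. The 6 markers of double-positive thymocytes summed to 42.8 to 55 CPM in D/N440K and 50.6 to 57.3 CPM in +/N440K, with Dntt at 0 in both, and 497 to 499 CPM in +/+. The 6 NK and ILC1 markers summed to 1286 to 1375 CPM in D/N440K, 1089 to 1180 CPM in +/N440K and 506 to 555 CPM in +/+. The 4 γδ markers summed to 177 to 185, 285 to 319 and 1002 to 1201 CPM in D/N440K, +/N440K and +/+. The 8 myeloid markers, with Elane and S100a9 at 0 in every group, summed to 313 to 326 CPM in D/N440K, 229 to 271 CPM in +/N440K and 129 to 168 CPM in +/+. The 6 B lineage markers, with Ms4a1 and Pax5 at 0 in every group, summed to 228 to 249 CPM in D/N440K, 316 to 332 CPM in +/N440K and 424 to 429 CPM in +/+. The 5 erythroid markers summed to 77.9 to 109 CPM in D/N440K, 11.8 to 24.5 CPM in +/N440K and 25.7 to 58.3 CPM in +/+. Of the 3 tested, Hba-a1 and Hbb-bs were called higher in D/N440K. Alas2 was not called there (12.3 against 16.8 CPM in +/+), and none of the 3 was called in +/N440K. The 4 proliferation markers summed to 1403 to 1474 CPM in D/N440K, 1294 to 1374 CPM in +/N440K and 1188 to 1201 CPM in +/+. In D/N440K only Mki67 was called, higher, and in +/N440K none was called. The 6 T cell markers summed to 3294 to 3410 CPM in D/N440K, 3294 to 3486 CPM in +/N440K and 3043 to 3171 CPM in +/+. Only 1 of these was called higher in each mutant, Il2rb, with 2071 CPM in D/N440K, 2032 CPM in +/N440K and 1507 CPM in +/+. In D/N440K 2 were called lower, and in +/N440K 3 were. The 7 markers of thymic stroma summed to 67.7 to 72.3 CPM in D/N440K, 73 to 86.5 CPM in +/N440K and 78.9 to 84.9 CPM in +/+. Neither of the 2 tested was called in either mutant. For dendritic cell and mast cell markers the sums of both mutant groups overlapped those of +/+. Within the dendritic cell list, though, calls went both ways in each mutant. Itgax was called higher, with 130 CPM in D/N440K, 101 CPM in +/N440K and 32.4 CPM in +/+. Siglech was called lower, with 75 CPM, 75.4 CPM and 112 CPM. The part of these cells in the Bcl2l1 and Bcl2l11 results was not tested.

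Genes that work with the family were read from 6 lists with 89 genes in all, and their calls stand beside the shares of all genes called given above, 12.4% in D/N440K, 10.1% in +/N440K and 23.2% in the Tcf7 comparison. Of the other BCL2 family genes, 6 of 16 were tested with the Bcl11b libraries and 8 of 16 with the Tcf7 libraries. Bmf, a BH3-only gene, fell in both Bcl11b mutants. It had 15.1 ± 4.08 CPM in D/N440K, 12.7 ± 3.98 CPM in +/N440K and 36.2 ± 6.63 CPM in +/+, with log2 fold changes of -1.22 ± 0.31 in D/N440K (edgeR adjusted p = 0.00426) and -1.46 ± 0.32 in +/N440K (edgeR adjusted p = 0.00103). In D/N440K it was not called without +/+ replicate 1 or D/N440K replicate 2 (-1.04 and -0.99, edgeR adjusted p = 0.0683 and 0.0749). It was the only one of 6 called in each comparison. Under the label Tcf7 F/F:Vav1-Cre, 2 of the 8 tested rose and none fell. Bik, another BH3-only gene, had 22.6 ± 4.72 CPM under the label Tcf7 F/F:Vav1-Cre, against 5.35 ± 1.2 CPM in Tcf7 +/+ (2.04 ± 0.36, edgeR adjusted p = 0.000386). Bcl2l2, which encodes the inhibitor BCL-W, had 25.2 ± 3.27 CPM, against 11 ± 3.58 CPM (1.19 ± 0.30, edgeR adjusted p = 0.00805), and did not pass without Tcf7 +/+ replicate 2 (0.89, edgeR adjusted p = 0.0577).

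In the death receptor list, 12 of 14 genes were tested in each table. Tnfsf10, the ligand TRAIL, rose in both Bcl11b mutants, with 323 ± 8.39 CPM in D/N440K, 278 ± 5.03 CPM in +/N440K and 188 ± 14 CPM in +/+. Its log2 fold changes were 0.79 ± 0.10 (edgeR adjusted p = 1.25e-07) in D/N440K and 0.57 ± 0.10 (edgeR adjusted p = 8.793e-05) in +/N440K. Under the label Tcf7 F/F:Vav1-Cre it fell, with 139 ± 15.9 CPM against 217 ± 42.7 CPM in Tcf7 +/+ (-0.65 ± 0.15, edgeR adjusted p = 0.00506). Tnfrsf10b, the TRAIL receptor, rose there, with 16.7 ± 1 CPM against 5.64 ± 0.796 CPM (1.55 ± 0.35, edgeR adjusted p = 0.00359). Tnfrsf25, the receptor DR3, fell in D/N440K, with 111 ± 2.93 CPM against 179 ± 22.4 CPM in +/+ (-0.67 ± 0.13, edgeR adjusted p = 0.000299). It was also lower in D/N440K than in +/N440K, at 165 ± 27.8 CPM (-0.56 ± 0.14, edgeR adjusted p = 0.0413). That call was lost without +/N440K replicate 2 (-0.39), D/N440K replicate 1 (-0.59) or D/N440K replicate 2 (-0.54; edgeR adjusted p = 0.436, 0.201 and 0.234). Tnfrsf25 rose under the label Tcf7 F/F:Vav1-Cre, with 223 ± 10.8 CPM against 125 ± 16.4 CPM in Tcf7 +/+ (0.83 ± 0.14, edgeR adjusted p = 0.000328). Tnfrsf1a, a receptor of TNF, rose there too, with 148 ± 1.12 CPM against 85.1 ± 24.7 CPM (0.79 ± 0.17, edgeR adjusted p = 0.00279), and by 0.53 without Tcf7 +/+ replicate 2 (edgeR adjusted p = 0.0105). In D/N440K Tnfrsf1a rose by 0.47 ± 0.12 (edgeR adjusted p = 0.00752), but was not called without +/+ replicate 2 or D/N440K replicate 2 (0.42 and 0.37, edgeR adjusted p = 0.102 and 0.145).

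Of the caspase cascade and its inhibitors, 15 of 17 genes were tested in each table. In D/N440K 1 fell, Parp1, a caspase substrate, by a log2 value of 0.38 ± 0.11 (edgeR adjusted p = 0.0148). It was not called without +/+ replicate 2 or D/N440K replicate 1 (-0.24 and -0.34, edgeR adjusted p = 0.375 and 0.147). In +/N440K none of the 15 passed by edgeR, and Casp9 had the lowest p there, with 78.7 CPM against 56.8 CPM in +/+ (0.46 ± 0.17, edgeR adjusted p = 0.0834). Under the label Tcf7 F/F:Vav1-Cre, 2 rose and none fell. Casp9, the initiator caspase of the mitochondrial pathway, had 101 ± 6.63 CPM, against 49 ± 16.7 CPM in Tcf7 +/+ (1.03 ± 0.20, edgeR adjusted p = 0.00118). Htra2, a mitochondrial protease that counters the IAP proteins, had 56.5 ± 4.37 CPM, against 28.5 ± 1.99 CPM (0.99 ± 0.21, edgeR adjusted p = 0.00212).

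Of p53 and its targets, 10 of 16 genes were tested with the Bcl11b libraries and 11 with the Tcf7 libraries, and calls went both ways. In D/N440K, Sesn1, a stress-response gene, fell, with 55.5 ± 5.08 CPM against 102 ± 7.27 CPM in +/+ (-0.87 ± 0.16, edgeR adjusted p = 0.000124). In +/N440K, Trp53inp1 fell by 0.50 ± 0.14 (edgeR adjusted p = 0.0163), but was not called without +/+ replicate 1 or +/N440K replicate 1 (-0.38 and -0.32, edgeR adjusted p = 0.226 and 0.272). Sesn2 rose there by 0.62 ± 0.20 (edgeR adjusted p = 0.0397), and the call was lost without any one of the 4 libraries (0.49 to 0.73, edgeR adjusted p = 0.0613, 0.338, 0.109 and 0.0774). In the Tcf7 table Cdkn1a, the cell cycle inhibitor p21, had 33.5 ± 4.28 CPM under the label, against 14.1 ± 14.3 CPM in Tcf7 +/+ (1.25 ± 0.41, edgeR adjusted p = 0.0371). Sesn2 rose there by 0.74 ± 0.26 (edgeR adjusted p = 0.0494) and Trp53inp1 fell by 0.60 ± 0.19 (edgeR adjusted p = 0.027). Without Tcf7 +/+ replicate 2, Cdkn1a was at 0.47, Sesn2 at 0.67 and Trp53inp1 at -0.18 (edgeR adjusted p = 0.286, 0.121 and 0.502). Without Tcf7 +/+ replicate 1, Cdkn1a was at 3.07 and Trp53inp1 at -0.94 (edgeR adjusted p = 4.477e-08 and 1.05e-07). Without replicate 1, 2 or 3 of the label, Cdkn1a (1.29, 1.33 and 1.14) and Sesn2 (0.84, 0.85 and 0.51) did not pass, nor did Trp53inp1 without replicate 2 or 3 (-0.52 and -0.58).

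The list of survival cytokine receptors and STAT5 joins receptors and their signalling genes with targets of STAT5 such as Cish. It held the largest fold changes of the 6 lists, in the Tcf7 comparison. There 6 of 15 rose and 1 fell, with a median log2 fold change of 0.38 beside -0.01 over all genes. Cish, a target of STAT5, had 338 ± 22.9 CPM under the label Tcf7 F/F:Vav1-Cre, against 38.6 ± 9.95 CPM in Tcf7 +/+ (3.13 ± 0.17, edgeR adjusted p = 1.613e-09). Il2ra, the interleukin-2 receptor alpha chain, had 330 ± 22.6 CPM, against 48.2 ± 4.39 CPM (2.77 ± 0.15, edgeR adjusted p = 1.64e-09). Kit, the receptor of stem cell factor, had 347 ± 19.7 CPM, against 59.2 ± 3.2 CPM (2.55 ± 0.15, edgeR adjusted p = 2.031e-09). Il4ra, the interleukin-4 receptor alpha chain, had 241 ± 28.6 CPM, against 109 ± 12.7 CPM (1.14 ± 0.15, edgeR adjusted p = 2.635e-05). These 4 kept their calls when any 1 library was left out. Kit is also expressed by mast cells, and the mast cell and basophil markers summed higher in the same libraries. The part of these cells in the Kit result was not tested.

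In the Bcl11b mutants, 2 of these 15 genes rose and 3 fell in each comparison with +/+. Il2rb, the receptor chain shared by interleukin-2 and interleukin-15, had 2071 ± 96.3 CPM in D/N440K, 2032 ± 122 CPM in +/N440K and 1507 ± 22 CPM in +/+ (0.46 ± 0.06 and 0.43 ± 0.06, edgeR adjusted p = 5.863e-07 and 2.631e-06). Cish rose in +/N440K, with 109 ± 9.36 CPM against 69.2 ± 0.464 CPM in +/+ (0.66 ± 0.15, edgeR adjusted p = 0.00186). It was called in D/N440K too, with 97.5 ± 2.6 CPM (0.50 ± 0.16, edgeR adjusted p = 0.0266). Stat5b was called lower in +/N440K (-0.39 ± 0.11, edgeR adjusted p = 0.0154) as well as in D/N440K. Jak3, the kinase of these receptors, fell, with 383 ± 0.0925 CPM in D/N440K, 409 ± 8.77 CPM in +/N440K and 539 ± 3.71 CPM in +/+ (-0.49 ± 0.08 and -0.40 ± 0.08, edgeR adjusted p = 1.403e-05 and 0.000377). Il4ra fell, with 73.2 ± 2.99 CPM in D/N440K, 102 ± 1.52 CPM in +/N440K and 141 ± 3.96 CPM in +/+ (-0.95 ± 0.14 and -0.47 ± 0.13, edgeR adjusted p = 2.639e-06 and 0.0132). In +/N440K the Il4ra call was lost without any one of the 4 libraries (-0.51 to -0.44, edgeR adjusted p of 0.0513 to 0.107). Stat5b fell in D/N440K by 0.45 ± 0.11 (edgeR adjusted p = 0.00429), and not without +/+ replicate 1 (-0.40, edgeR adjusted p = 0.0685).

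All 11 genes of the FOXO and AKT list, in which FOXO factors drive Bcl2l11 in lymphocytes and AKT holds them back, were tested in both tables. In D/N440K 2 rose and 2 fell, in +/N440K 2 rose and 3 fell, and under the label Tcf7 F/F:Vav1-Cre 2 rose and 4 fell. Foxo3 fell in the Bcl11b mutants, with 179 ± 21.6 CPM in D/N440K, 180 ± 24.2 CPM in +/N440K and 297 ± 13.2 CPM in +/+ (-0.72 ± 0.11 in both, edgeR adjusted p = 4.591e-06 and 4.473e-06). Under the label Foxo3 rose, with 315 ± 19.8 CPM against 214 ± 32.2 CPM in Tcf7 +/+ (0.56 ± 0.14, edgeR adjusted p = 0.00588), and not without replicate 3 of the label (0.51, edgeR adjusted p = 0.0518). Sgk1, an AKT-related kinase, had 233 ± 3.35 CPM in D/N440K, 255 ± 43 CPM in +/N440K and 129 ± 9.91 CPM in +/+ (0.86 ± 0.12 and 0.98 ± 0.12, edgeR adjusted p = 1.446e-06 and 1.062e-07). Under the label Sgk1 had 42.1 ± 5.5 CPM, against 103 ± 19.1 CPM in Tcf7 +/+ (-1.30 ± 0.19, edgeR adjusted p = 8.215e-05). Pik3ip1, an inhibitor of the kinase upstream of AKT, fell under the label, with 8.96 ± 1.97 CPM against 29.6 ± 2 CPM (-1.69 ± 0.28, edgeR adjusted p = 0.000287). It also fell in D/N440K (-0.92 ± 0.21, edgeR adjusted p = 0.00115) and in +/N440K (-0.66 ± 0.20, edgeR adjusted p = 0.0225). The call in +/N440K did not hold without +/+ replicate 1 (-0.49), +/N440K replicate 1 (-0.69) or +/N440K replicate 2 (-0.63; edgeR adjusted p = 0.292, 0.0616 and 0.0765). Klf2, a FOXO1 target that guides lymphocyte exit, rose in +/N440K (0.52 ± 0.11, edgeR adjusted p = 0.00112) and D/N440K (0.40 ± 0.11, edgeR adjusted p = 0.0143) and fell under the label (-0.71 ± 0.16, edgeR adjusted p = 0.00403). Its call in D/N440K was lost without any one of the 4 libraries (0.38 to 0.42, edgeR adjusted p of 0.0621 to 0.0954). Whether the effects on these list genes differ between the Bcl11b and Tcf7 comparisons was not tested here. With sex as a term, 10 of the genes named from the lists lost their call in the Tcf7 comparison, namely Bcl2l2, Tnfrsf1a, Tnfsf10, Casp9, Htra2, Trp53inp1, Cdkn1a, Sesn2, Klf2 and Foxo3 (edgeR adjusted p of 0.0554 to 0.477). Over the libraries with Y-linked reads alone none of the 19 genes named as called in that comparison passed. DESeq2 did not call Cdkn1a and Sesn2 there, nor Bmf, Tnfrsf1a, Parp1, Stat5b, Pik3ip1 and Klf2 in D/N440K with +/+, nor Bmf, Trp53inp1, Sesn2, Cish, Il4ra, Klf2 and Pik3ip1 in +/N440K with +/+.

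Between D/N440K and +/N440K, Tnfrsf25 was the only gene called on the 6 lists, and it was not called by DESeq2 (adjusted p = 0.88) or with the replicate block (edgeR adjusted p = 0.102). On 4 of the other lists the genes of lowest p were Bad (-0.28 ± 0.31), Dffb (-0.29 ± 0.25), Sesn1 (-0.42 ± 0.17) and Il4ra (-0.48 ± 0.15), with edgeR adjusted p-values of 0.934, 0.892, 0.475 and 0.179.

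**Figure D4:**
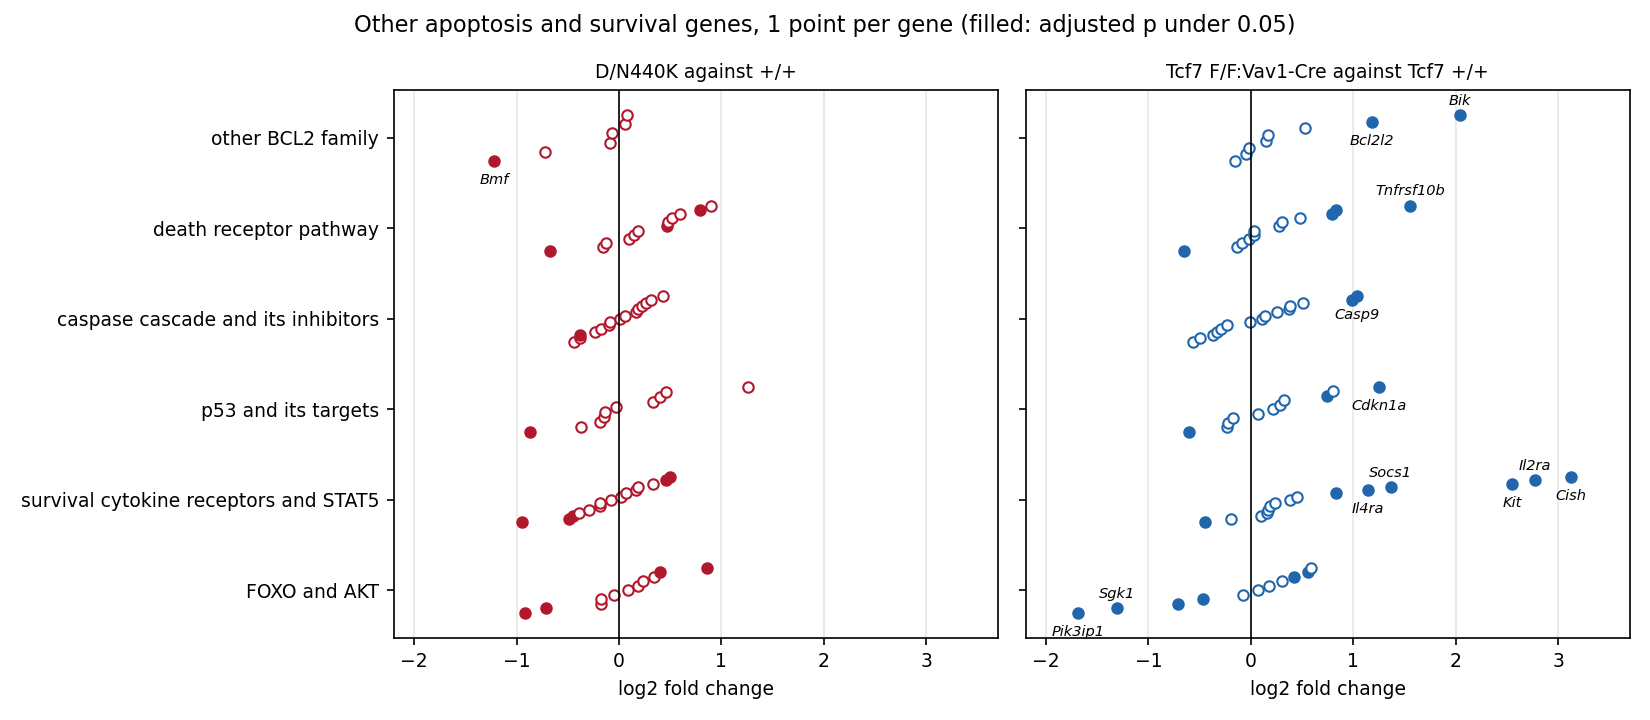
The log2 fold change of each tested gene of the 6 lists (rows) in D/N440K with +/+ (left) and in libraries labelled Tcf7 F/F:Vav1-Cre with Tcf7 +/+ (right), 1 point per gene; filled points passed an edgeR adjusted p under 0.05 and names mark called genes past 1 in either direction. Cish (3.13), Il2ra (2.77) and Kit (2.55) lie farthest to the right, and Bmf (-1.22) is the only named gene on the left.

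Across the 11 libraries, after centring log2 CPM on the mean of each table, the genes most like each member were read as a description among 10131 genes tested in both tables. The libraries fall into genotype groups and 2 tables, and the points share these. Most like Bcl2 were Adamts2 (Pearson r = 0.991), a procollagen protease, and Deptor (r = 0.984), an inhibitor of the kinase mTOR. Under the label Tcf7 F/F:Vav1-Cre, Adamts2 had 337 ± 31 CPM against 15.2 ± 4.78 CPM in Tcf7 +/+, and Deptor 119 ± 7.49 CPM against 9.3 ± 1.19 CPM. In the Bcl11b table Adamts2 averaged 24, 19.4 and 14.1 CPM and Deptor 20.5, 20.8 and 19.4 CPM in D/N440K, +/N440K and +/+. Most like Bcl2l1 were Itgb7 (r = 0.986), an integrin chain, and Espn (r = 0.982), an actin-bundling protein. Most like Bcl2l11 were Klc2 (r = 0.911) and Lsm10 (r = 0.898). Fas was not tested in both tables and was not compared.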

How the data were processed

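RNA of sorted mouse thymocytes was measured in 11 libraries, grouped by the sample titles. The labels' protocols name a modified RamDA-seq with Tn5 fragmentation and PCR, and no molecular identifiers. The count tables hold whole read counts per Ensembl gene, deposited without normalization. The CPM tables hold, as the authors deposited them, library-scaled read counts with TMM factors, for the genes that passed a filter on low counts. Checked on every library, 100% of their values gave back whole reads within 0.001. The tools were HTSeq 0.11.2, STAR 2.7.3a, fastp 0.20.0, Picard 2.21.1, SAMtools 1.9 and edgeR, with the mm10 (GRCm38) genome, per the submitters' processing notes. The annotation release and the strand of counting are not given in the sources used here.

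Of 53801 and 55471 gene identifiers in the Bcl11b and Tcf7 tables, 53706 and 55230 were in GENCODE M21, from which gene positions and exon lengths were taken. Each table was filtered with filterByExpr (minimum count of 10), scaled by TMM and fitted with edgeR 4.0.16 in R 4.3.3 (glmQLFit, glmQLFTest, two-sided), with 1 coefficient per group and 3 residual degrees of freedom. The 4 comparisons set D/N440K against +/+, +/N440K against +/+, D/N440K against +/N440K and, within its own table, Tcf7 F/F:Vav1-Cre against Tcf7 +/+. Adjusted p-values cover all genes tested in a fit. An SE is the unshrunken log2 fold change over the root of its F value. Levels per kb divide CPM by exon length. The model was also run on counts simulated from its own fitted means and spreads, which cannot show that it suits these libraries.

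The members, the 6 gene lists and the 11 marker lists were chosen with earlier results of these data known. All members are named. Of each list, the called genes are named, up to 4 by p in a comparison, or else the gene with the lowest p. Cish in D/N440K and Stat5b in +/N440K are named beyond this limit, and alternatives are not given for them. Results for some genes are not reported here. Likeness took genes with an average log2 CPM of at least 3. Alternatives were RLE scaling, no filter, CPM of 5 in 2 libraries, DESeq2 1.42.0, limma 3.58.1 on log2(authors' CPM + 1) and + 0.25, a replicate block, reads recovered from the authors' CPM, a fit of the compared groups alone, and leaving out single libraries. Where that left 1 library in a group, its spread was taken from the rest of the table. Sex as a term and libraries with Y-linked reads only (at least 10) were added after seeing the data. Figures used Python 3.11.15 with matplotlib 3.10.9.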

Additional observations from a re-analysis of the deposited data

Results flagged for a closer look

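The D/N440K effect on Bcl2 and its effect under the label Tcf7 F/F:Vav1-Cre differed by a log2 value of -1.40 (edgeR adjusted p = 6.413e-07), which drew attention because the same gene responded differently in 2 contrasts of mutant with wild type. The effects were 0.21 in D/N440K and 1.61 under the label. Bcl2 was higher in 3 of 3 libraries of the label than in either Tcf7 +/+ library, and in 2 of 2 D/N440K libraries than in either Bcl11b +/+ library. Age, table and depth differ between the contrasts along with genotype and cannot be told apart from it. Groups of 2 or 3 libraries are too small for a test of outlying libraries.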

How the results depend on the processing

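Over 624 combinations of a member's fold change and an alternative, 557 kept direction and side of the threshold, 25 lost a call, 6 gained one and 36 changed sign, all 36 in differences that had not passed. In the Tcf7 comparison Bcl2 kept its call under every alternative except libraries with Y-linked reads only (1.62), and members called were 2 to 4 with 1 library left out and 0 with Y-linked libraries only. All genes called numbered 2863, against 1606 without a filter, 1112 with sex as a term, 0 with Y-linked libraries only and 1700 to 4612 with 1 library left out, the highest without Tcf7 +/+ replicate 1. In +/N440K, members called numbered 2, against 1 under RLE, without a filter, with CPM of 5, limma with a pseudocount of 0.25, the replicate block and only the groups compared, 0 with DESeq2 and 1 to 1 with 1 library left out. All genes called numbered 1101 there, 357 with DESeq2 and 726 to 945 with 1 library left out. In D/N440K, members called were 2 (Bcl2l1 and Bid) with only the groups compared and 0 to 1 with 1 library left out, and all genes called were 528 with DESeq2 against 1353. For D/N440K with +/N440K, all genes called were 58, against 91 without a filter, 4 with DESeq2, 37 with the replicate block and 25 to 63 with 1 library left out. For the difference of effects they were 1407, against 898 with DESeq2, 811 with Y-linked libraries only and 861 to 2642 with 1 library left out, and Bcl2 was called in all 14 alternatives.

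Sign changed for Bid in D/N440K with +/N440K by limma (0.0139 and 0.0141), for the difference of effects of Bcl2l11 without a filter (0.033), with the replicate block (0.0161) and with Y-linked libraries only (0.18), and for that of Bak1 with Y-linked libraries only (0.039). With 1 library left out it changed in +/N440K for Bcl2 (-0.0106 to 0.24) and Mcl1 (-0.0211 to 0.12), in D/N440K for Mcl1 (-0.0298 to 0.005), Bbc3 (-0.30 to 0.61) and Pmaip1 (-0.67 to 0.37), and in the Tcf7 comparison for Pmaip1 (-0.033 to 0.38). For D/N440K with +/N440K the ranges were -0.10 to 0.0466 for Bcl2l1, -0.13 to 0.0095 for Mcl1, -0.0212 to 0.27 for Bax, -0.0846 to 0.26 for Bak1, -0.89 to 0.0848 for Bbc3, -0.0682 to 1.22 for Pmaip1 and -0.18 to 0.22 for Bid. For the difference of effects they were -0.14 to 0.0621 for Bcl2l11, -0.55 to 0.30 for Bak1, -0.83 to 0.20 for Pmaip1, -0.0516 to 0.51 for Bid and -0.24 to 1.17 for Fas. The causes were not tested. Of 636 combinations for 46 called genes of the 6 lists, 98 lost the call and 0 changed sign. DESeq2 accounted for 16 of the losses, Y-linked libraries only for 19, sex as a term for 10, the replicate block for 3 and leaving out 1 library for 40, and scaling, limma or no filter for the rest.

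The labels do not say whether replicate numbers pair the samples. Correlations of same-numbered deviations were -0.04 to -0.002 in the Bcl11b table and -0.15 and 0.08 in the Tcf7 table. With 2 libraries a group, deviations of the 2 replicates mirror each other, so these values cannot decide on pairing. Of the members, the block ended the Bcl2l1 calls only, with 0.42 in +/N440K (edgeR adjusted p = 0.0658) and 0.52 in the Tcf7 comparison (edgeR adjusted p = 0.149). With 2 or 3 libraries a group and 2 to 11 reads per Fas value in the Bcl11b table, small changes of the low members could not be resolved.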
